A study of Rattus norvegicus with 6 samples.

Results

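Napepld and Pld1 encode enzymes that cleave phospholipids by a phospholipase D type reaction. They were 2 of the 38 rat genes that could be named through RefSeq accessions on an array otherwise built for PIWI-interacting RNAs. Each gene had a single probe, A_44_P451930 for Napepld (NM_199381) and A_44_P338970 for Pld1 (NM_030992), printed in 10 spots per array. The members were found by these accessions, and both were present on every array. They were selected on earlier results of these arrays, so their measured difference in signal between the strains counts as a value that chose them. It is given below as a description, with no p-value, and nothing is read from the members' calls.

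The series compared pancreatic islets of Wistar rats, the control strain, with islets of Goto-Kakizaki (GK) rats, which were bred from Wistar stock and develop diabetes without obesity. There were 3 samples per strain, all from animals aged 3 months, and no treatment is given in the labels. Total RNA was prepared from each islet sample separately, tagged with Cy3 at its 3′ end by RNA ligase and hybridised, 1 sample per array. The 3 Wistar arrays and GK 1 share a scan time in the file headers, and GK 2 and GK 3 share another, with array positions that repeat between them. The headers name no slide. From these entries the arrays were inferred to lie on 2 slides, called slide 1 and slide 2 here, so strain and inferred slide overlap in part.

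Napepld is an enzyme that releases N-acylethanolamines from their membrane precursors, with phosphatidic acid as the other product. These lipid messengers include anandamide, oleoylethanolamide and palmitoylethanolamide. The Napepld protein is a zinc enzyme of the metallo-β-lactamase fold and is unrelated in sequence to the classical phospholipases D. In islets, oleoylethanolamide is known as a ligand of the receptor Gpr119 on beta cells, and anandamide as a ligand of cannabinoid receptors. Pld1 is a classical phospholipase D, which splits phosphatidylcholine into choline and phosphatidic acid. It is switched on by small GTPases of the Arf family and by protein kinase C, and it is known for a part in vesicle traffic and regulated exocytosis, including insulin release from beta cell lines. The enzymes thus use different substrates and share phosphatidic acid as a product.

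In the rat assembly GRCr8, Napepld lies on chromosome 4 from 14251591 to 14291010, a span of 39420 bases. Pld1 lies on chromosome 2 from 112777820 to 112975857, a span of 198038 bases. RefSeq lists 6 transcripts for Napepld and 4 for Pld1. The probe sequences, their strand and their position in exons or untranslated regions were not used here, so which transcripts each probe reads cannot be stated.

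As background, the start regions of the 2 genes are shown, each with 250 bases before and 50 bases after a RefSeq transcript start. They are from the plus strand of the GRCr8 assembly and were not read from the rats of this series. The Napepld window is chr4:14253010-14253309 and the Pld1 window is chr2:112821926-112822225, and they begin 1419 and 44106 bases inside the annotated spans of their genes. Capitals mark the GC box letters GGGCGG or, on the opposite strand, CCGCCC.
Napepld: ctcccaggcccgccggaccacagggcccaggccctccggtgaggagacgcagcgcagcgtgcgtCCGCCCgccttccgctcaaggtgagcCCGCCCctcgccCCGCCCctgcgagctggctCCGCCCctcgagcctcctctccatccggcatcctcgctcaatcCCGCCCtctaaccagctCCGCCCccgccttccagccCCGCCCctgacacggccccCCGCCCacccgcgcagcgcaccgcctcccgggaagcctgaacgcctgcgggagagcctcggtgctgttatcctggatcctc
Pld1: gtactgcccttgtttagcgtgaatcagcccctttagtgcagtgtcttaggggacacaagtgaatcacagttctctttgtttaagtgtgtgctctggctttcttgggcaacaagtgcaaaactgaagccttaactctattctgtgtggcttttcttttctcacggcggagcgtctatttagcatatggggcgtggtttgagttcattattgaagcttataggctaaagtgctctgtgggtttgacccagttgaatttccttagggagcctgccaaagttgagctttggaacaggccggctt

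The windows differ in composition. The Napepld window held 8 GC box matches, none of which overlapped, 32 CpG dinucleotides and a GC content of 74.7%. The Pld1 window held 0 GC box matches, 6 CpG dinucleotides and a GC content of 46.3%. Of 27457 RefSeq windows of the same length, 34.9% held a GC box, and the median was 7 CpG dinucleotides and a GC content of 52.3%. The Napepld window had more CpG dinucleotides than 91.0% of all windows, and the Pld1 window more than 41.9%. The TATA letters TATAAA, read on both strands, were in neither window and in 14.3% of all windows. These matches describe the letters only, and the arrays hold no measurement at the start regions.

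The first question was whether the probes gave a signal in islets. The processed signal of a spot, in arbitrary scanner units with the array's background subtracted, was averaged over the spots without an outlier flag. Napepld gave a dim signal on the Wistar arrays. Its mean was 15.7 on Wistar 1 (SD 1.94 over 10 spots), 5.91 on Wistar 2 (SD 0.903 over 6 spots) and 8.22 on Wistar 3 (SD 1.99 over 10 spots). On the GK arrays it was 43.4 on GK 1 (SD 5.46 over 10 spots), 33.5 on GK 2 (SD 2.33 over 8 spots) and 20.7 on GK 3 (SD 2.70 over 9 spots). The lowest GK array, GK 3, was above the highest Wistar array, Wistar 1, and Wistar 2 was the lowest of all 6. In these bulk samples, fewer cells that express a gene and less of its RNA per cell cannot be told apart.

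By the scanner software's own call, all 10 Napepld spots were well above background on each GK array. On the Wistar arrays 7 of 10 spots were on Wistar 1, 0 of 10 on Wistar 2 and 5 of 10 on Wistar 3. A probe was taken as well above background on an array where at least 50% of its spots were, which held for Napepld on 5 of the 6 arrays, and on Wistar 3 only just. The negative control spots, 141 to 152 per array, had mean processed signals between 1.79 and 3.00, and none was well above background. All 53 Napepld spots used, those of Wistar 2 included, were brighter than the brightest negative control spot of their own array.

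Pld1 met the same call on every array, and all of its 54 spots used did so too. Its mean signal was 59.4 on Wistar 1 (SD 1.84 over 8 spots), 41.6 on Wistar 2 (SD 1.47 over 9 spots) and 14.8 on Wistar 3 (SD 2.26 over 10 spots). On the GK arrays it was 117 on GK 1 (SD 17.7 over 9 spots), 61.0 on GK 2 (SD 4.54 over 8 spots) and 66.8 on GK 3 (SD 2.54 over 10 spots). GK 1 stood above the rest and Wistar 3 below them, while GK 2 and Wistar 1 lay close together before any scaling between arrays.

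**Figure D1:**
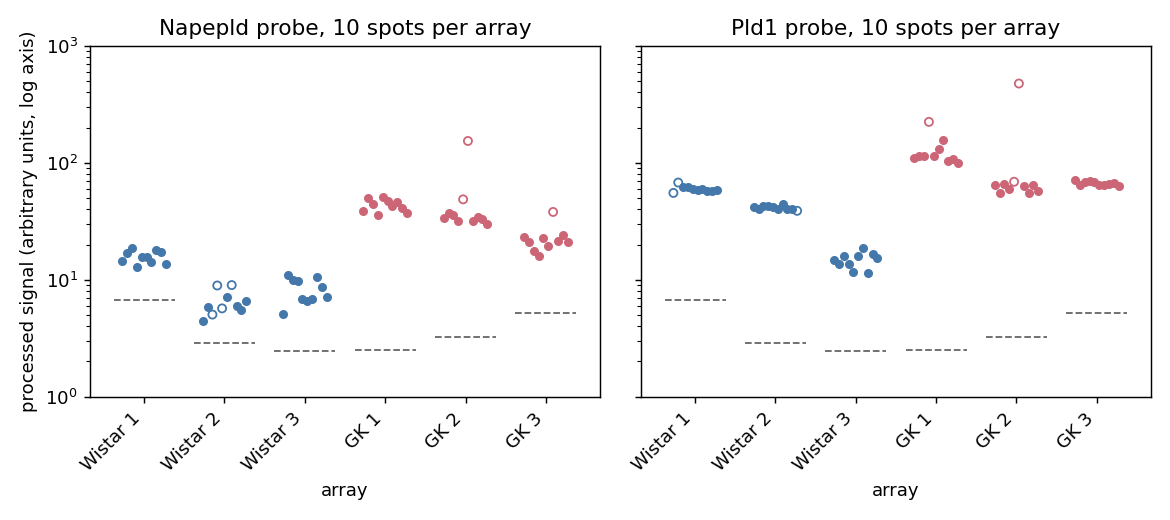
Processed signal of every spot of the Napepld and Pld1 probes on the 6 arrays, on a log axis in arbitrary units. Filled points were used, open points carried an outlier flag, and dashed lines mark the brightest negative control spot of each array. All used spots lie above the dashed line, and the Napepld spots of Wistar 2 lie nearest to it.

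The spots carried both probes' own technical error. On the log2 scale the SD among spots of an array was between 0.10 and 0.36 for Napepld and between 0.04 and 0.22 for Pld1. The spread between arrays of a strain was wider, with a pooled SD of 0.47 for Napepld and 0.70 for Pld1 on the scaled log2 values. Outlier flags removed 7 of 60 Napepld spots and 6 of 60 Pld1 spots. On GK 2 the flagged spots included the brightest of each probe, at 154 for Napepld and 477 for Pld1.

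In the raw spot signal, before any background was taken off, each GK array also lay above each Wistar array for both genes. For Napepld it was 51.6, 40.6 and 40.2 on Wistar 1, 2 and 3, and 79.1, 70.8 and 58.1 on GK 1, 2 and 3, where negative control spots read between 31.5 and 35.1. For Pld1 the raw signal was 96.2, 75.7 and 47.0 on Wistar 1, 2 and 3, against 153, 99.2 and 107 on GK 1, 2 and 3. Local background beside the member spots was between 17.2 and 22.3 and was highest on GK 2, the array on which the median signal over all probes, 7.87, was also highest. On the other 5 arrays that median was between 2.43 and 3.42. The part of this difference between arrays in the members' values was not tested.

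The main comparison asked how the signals differ between GK and Wistar islets once arrays are brought to a common scale. Each value was the log2 signal minus the array's own 75th percentile over the 7795 probes that met the call on every array, so that a value of 0 is the level of that percentile. Scaled this way, Napepld was at -3.93, -5.06 and -4.62 on Wistar 1, 2 and 3, and at -2.20, -2.17 and -2.77 on GK 1, 2 and 3. The strain means were -4.53 ± 0.57 in Wistar (SD, n = 3) and -2.38 ± 0.34 in GK (SD, n = 3). The groups did not overlap, and the gap between the lowest GK array and the highest Wistar array was 1.15. The log2 difference, GK minus Wistar, was 2.15 (SE 0.36), which is 4.44-fold higher in GK. The Wistar side of this ratio was near background. On Wistar 2, 0 of 10 spots were well above background, and on Wistar 3, 5 of 10. The fold therefore depends on the background taken off.

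For Pld1 the scaled values were -2.01, -2.24 and -3.77 on Wistar 1, 2 and 3, and -0.77, -1.31 and -1.08 on GK 1, 2 and 3. Means were -2.67 ± 0.96 in Wistar (SD, n = 3) and -1.06 ± 0.27 in GK (SD, n = 3). Here too the groups did not overlap, with a gap of 0.70 between GK 2 and Wistar 1. Wistar 3 stood 1.53 below the next array of its group. The log2 difference was 1.62 (SE 0.48), which is 3.07-fold higher in GK, and without Wistar 3 it was 1.07 (SE 0.28).

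**Figure D2:**
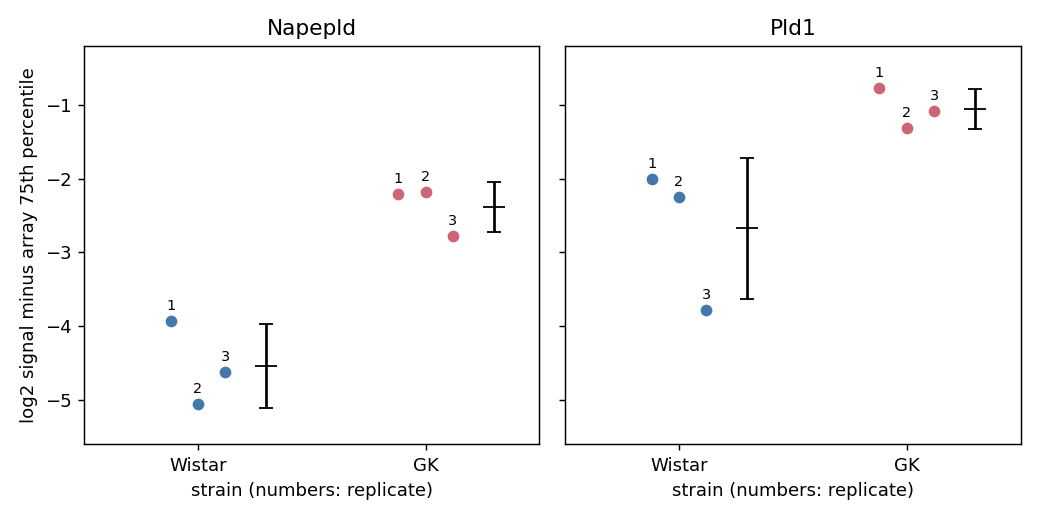
Scaled log2 signal of Napepld and Pld1 (log2 signal minus the array's 75th percentile) by strain. Points are arrays, numbered by replicate, and the bars beside them are the mean and SD of 3 arrays. GK arrays lie above all Wistar arrays in both panels, and Wistar 3 lies low for Pld1.

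The background for these counts was wide. Of 11358 tested probes measured on all arrays, 12.5% did not overlap between the strains with GK higher and 5.19% with GK lower. Both members fell in the first class. In the limma fit across 11407 probes, 5 (0.0438%) passed an adjusted p of 0.05, and neither member's probe was among them. Since that contrast lies behind the choice of the members, nothing is read from either count.

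The inferred slides gave a second view of the same arrays. Within slide 1, GK 1 exceeded Wistar 1, 2 and 3 by 1.72, 2.85 and 2.42 for Napepld on the log2 scale. For Pld1 it exceeded them by 1.23, 1.47 and 3.00. GK 1 therefore lay above each Wistar array of its own slide for both genes. Against the Wistar mean, GK 1 was higher by 2.33 for Napepld and GK 2 and GK 3 together by 2.06. The same values for Pld1 were 1.90 and 1.48. As the inferred slide 2 held GK samples only, strain and slide cannot be told apart for GK 2 and GK 3, and within slide 1 the GK side is a single array.

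The size of both differences depended on the scaling. Both were positive under each scaling and background correction tried, but these use the same arrays and the contrast that chose the members. Nothing is read from that sign. The median log2 difference over all tested probes was 0.17 under the scaling above, -0.10 with quantile normalization, -0.31 with the percentile taken over every non-control probe and -0.22 without scaling. Relative to that median, Napepld was higher by 1.98, 1.82, 1.98 and 1.98 in the same order. Pld1 was higher by 1.45, 1.48, 1.45 and 1.45. Apart from quantile normalization these settings shift each array by a constant, so that their values match by construction. With the normexp background correction the values relative to the median were 0.48 for Napepld and 0.61 for Pld1. For Pld1 the groups overlapped when every non-control probe set the percentile, where GK 2 fell to 1.65, below Wistar 1 at 2.06 and Wistar 2 at 1.71. Without scaling the gap between the Pld1 groups was 0.04.

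Of the settings tried, normexp gave the smallest differences. It changes several choices together, as it starts from median spot signals, uses another background model and adds an offset of 50 to every spot. Under it the log2 difference was 0.70 (SE 0.13) for Napepld and 0.84 (SE 0.18) for Pld1. In linear terms these are 1.63-fold and 1.79-fold, against 4.44-fold and 3.07-fold above. The order of the 2 genes by size of difference thus turned under normexp. An added constant shrinks the ratios of a dimmer probe more, and Napepld was the dimmer. With the offset of 50 included, normexp signals on the Wistar arrays were 64.1 to 75.7 for Napepld and 71.3 to 120 for Pld1. The part of the offset in the turned order was not tested, and nothing is read from that order. Neither group pair overlapped under normexp.

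**Figure D3:**
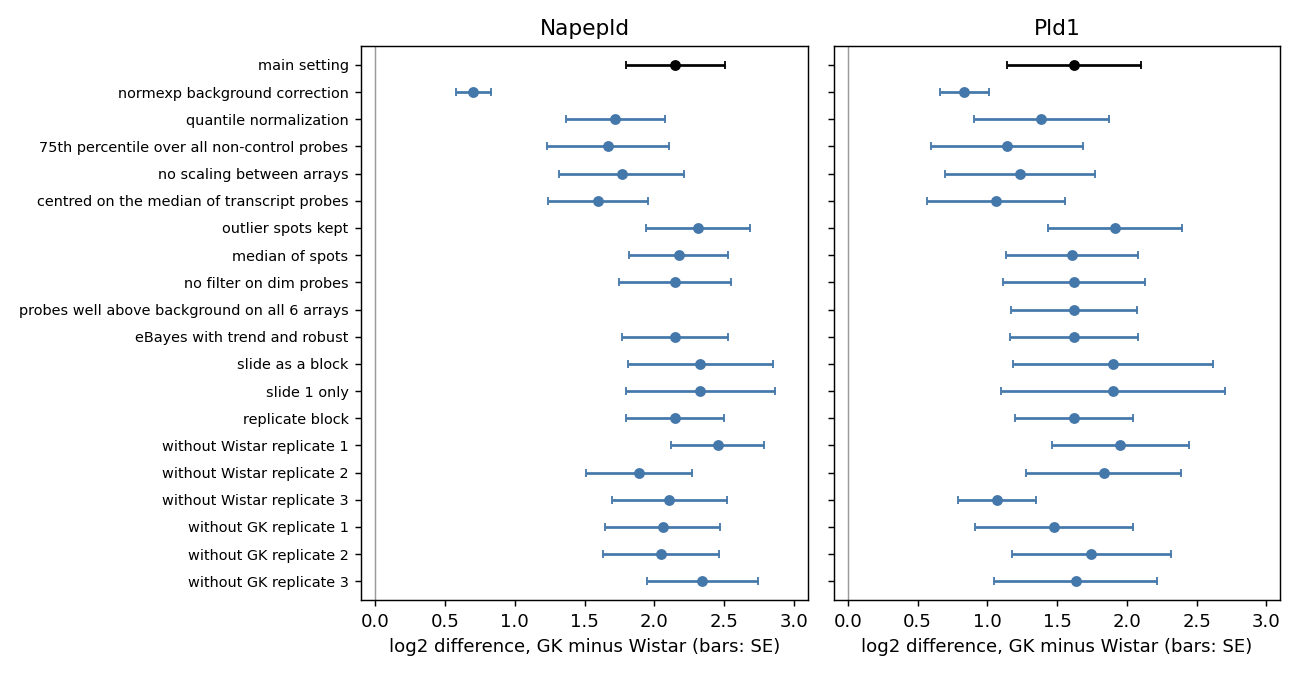
Log2 difference, GK minus Wistar, of Napepld and Pld1 under the main setting (black) and each alternative (blue), with bars for the SE. Every point lies above 0, and the normexp points, at 0.70 and 0.84, are the lowest in their panels. Napepld has no point under the filter that keeps probes detected on 6 of 6 arrays, since Wistar 2 did not meet the call.

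The 2 genes were then set beside the other named transcripts on the array. Of 61 probes matched through RefSeq, 51 probes of 35 genes were tested and measured on all arrays. Among the 49 that are not members, 38 had a positive and 11 a negative log2 difference, with a median of 0.36 and a range from -0.97 to 3.37. The median over all tested probes was 0.17, and 63.3% of those had a positive difference. Of the 49, 16 did not overlap between strains with GK higher and 0 with GK lower. Over all tested probes measured on all arrays, these shares were 12.5% and 5.19%. In another setting each array was centred on the median of those other transcript probes that met the call on every array. The log2 difference was then 1.60 (SE 0.36) for Napepld and 1.07 (SE 0.49) for Pld1.

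**Figure D4:**
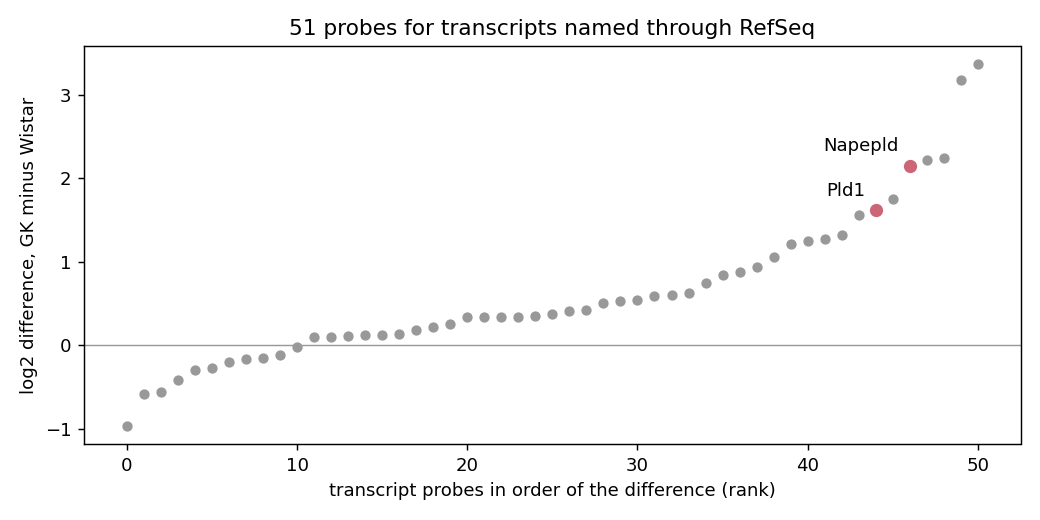
Log2 difference, GK minus Wistar, of the 51 tested probes for RefSeq-named transcripts, in order of size. Napepld at 2.15 and Pld1 at 1.62 are in red, and 11 of the other probes lie below 0.

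The array profiles of the 2 genes were alike in strain and unlike in detail. Each profile was centred on its own mean over the 6 arrays, and likeness was the mean absolute difference between profiles in log2 units. Napepld and Pld1 differed by 0.55 on this measure. The lowest array was Wistar 2 for Napepld, at -1.60 from its mean, and Wistar 3 for Pld1, at -1.91. GK 2 was the highest array for Napepld, at 1.28, with GK 1 next at 1.26. For Pld1, GK 1 was the highest at 1.09 and GK 2 the lowest of the GK arrays at 0.56.

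Among 28 other genes with a probe that met the call on every array, 3 per member were nearest by this measure. For Napepld these were Pdk3, a kinase that inhibits pyruvate dehydrogenase, at 0.33, B2m, the light chain of MHC class I, at 0.33, and Slc28a2, a nucleoside transporter, at 0.46. For Pld1 they were Slc28a2 at 0.23, Ptk2b, a calcium-responsive tyrosine kinase, at 0.30, and Pdk3 at 0.33. Each of these genes was nearer to the member than the members were to each other. They are the smallest of 28 distances, each taken at the gene's nearest probe, and are set against 1 fixed pair. The distance also includes the strain difference, so nothing is read from this order. Their log2 differences between strains were 1.57 for Pdk3, 1.33 for Slc28a2, 1.22 for Ptk2b and 1.75 for the nearest B2m probe. The other B2m probes had smaller differences, at 0.94 and 0.51. The likeness rests on 6 arrays that share scaling and slides, and it is a description only.

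**Figure D5:**
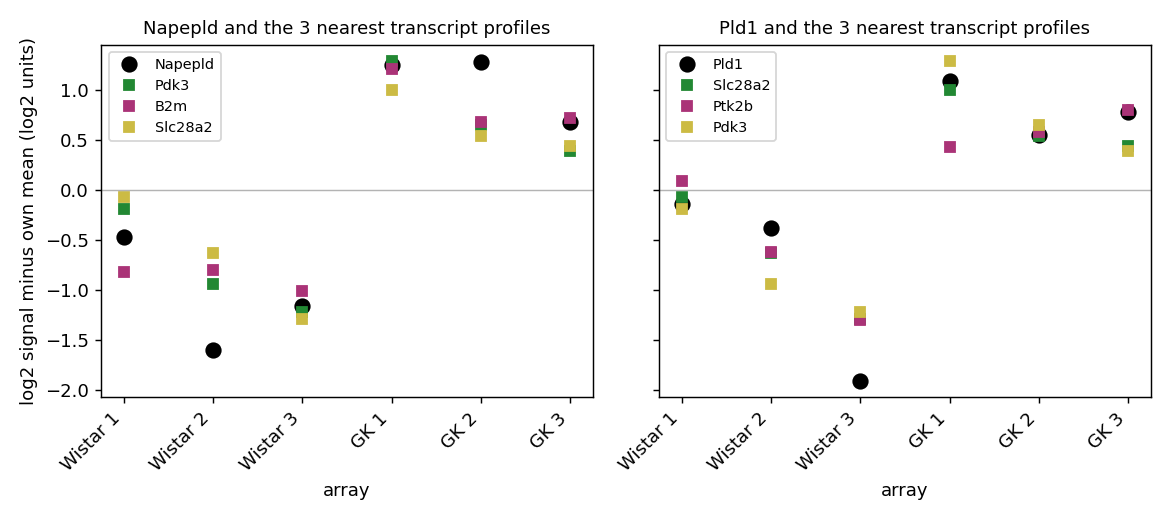
Scaled log2 signal of Napepld (left) and Pld1 (right, black circles) with the 3 nearest transcript profiles (coloured squares) on the 6 arrays, each centred on its own mean. All profiles shown are higher on GK than on Wistar arrays, and Pld1 dips on Wistar 3 to -1.91.

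The rest of the pathway could not be followed on these arrays. Of 53 genes of N-acylethanolamine and phosphatidic acid metabolism and signalling, the 2 members were the ones with a named probe. Other phospholipases D, the hydrolases Faah and Naaa that break N-acylethanolamines down, and the receptors Gpr119 and Cnr1 had no named probe. Of 34 markers of islet endocrine, acinar, duct, endothelial, immune and stromal cells that were looked for, 2 islet miRNAs among them, 0 had a named probe. The makeup of the islet preparations, and its part in the differences of Napepld and Pld1, was not tested.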

How the data were processed

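Islet RNA of 3 GK and 3 Wistar samples was measured on 1 one-colour array each. The deposited scanner files hold spot intensity values for 42734 spots per array, read with Agilent Feature Extraction 11.0.1.1, which subtracted the background within the array without normalizing between arrays, per the file headers. The authors' deposited matrix and comparison table hold piRNA probes only and were not used here.

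The processed signal was averaged over spots without outlier flags and taken as log2 minus the array's 75th percentile over the 7795 probes detected (well above background) on each of the 6 arrays. Probes well above background on at least 3 arrays were fitted with limma 3.58.1 under R 4.3.3. Strain was the sole term, with the Benjamini-Hochberg adjustment and a threshold of 0.05. The script was tested on simulated data. No spot was saturated. Correlations between arrays over 11358 probes were between 0.873 and 0.969, and precision is limited by the number of arrays. Normexp used median spot signals, as the files give no spot mean.

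The members, gene lists and tests were chosen with earlier results of these data known. The genes named with values are the members and the 3 nearest transcript profiles of each. Some listed pathway genes without a named probe are named as such. The headers name no slide, so slides were inferred from shared scan times and array positions. Names and start regions came from RefSeq (GRCr8). Replicates are numbered islet samples in the labels and were taken here as separate samples. Alternatives covered background correction, scaling, spot summary, filters, variance model, slide, replicate number and each array left out.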

Additional observations from a re-analysis of the deposited data

How the results depend on the processing

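Both members' log2 differences were positive under every alternative, 18 for Napepld and 19 for Pld1. For several of these the sign could not change. The filters, the variance model and the replicate block leave the difference of a kept probe as it was. The slide block gives the same difference as slide 1 alone, as slide 2 held GK samples only. Leaving out arrays cannot turn the sign where the strains do not overlap. Napepld was 0.70 with normexp, 1.67 when every non-control probe set the percentile and 1.60 when centred on transcript probes, and Pld1 was 0.84 with normexp. The other alternatives moved them by less than the SD between arrays. Leaving out 1 array gave 1.89 to 2.45 for Napepld and 1.07 (without Wistar 3) to 1.95 for Pld1. The filter for probes detected on 6 of 6 arrays left no value for Napepld.

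The number of probes past the adjusted threshold, 5 in the fit reported, was 15 with normexp, 14 when every non-control probe set the percentile, 8 when flagged spots were kept, 8 with eBayes set to trend and robust, and 2 among probes detected on 6 of 6 arrays. limma left 0 with quantile normalization (1004 at an unadjusted p under 0.05), without the filter on dim probes (2512), with the slide as a block (409) and on slide 1 alone (390). Leaving out 1 array gave 0 to 21, the latter without GK 1, where strain and inferred slide coincide, and 0 (597 to 1312 unadjusted) without any other array.

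The replicate numbers of the labels were not used as pairs. Correlations of same-numbered deviations from the strain means were -0.0262, 0.0392 and 0.0392. The same-numbered Wistar array had the highest correlation for GK 2, but not for GK 1 or GK 3. With so few arrays these values cannot exclude a pairing. With the replicate block 0 probes passed (1273 unadjusted), and the members' differences stayed at 2.15 and 1.62, with SE of 0.35 and 0.42. Signal over background limits the Napepld values, as its probe was not well above background on Wistar 2.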
